A study of Mus musculus with 9 samples.

Results

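The transcriptome of the unloaded left ventricle of the mouse at postnatal day 14 was described from 3 sham libraries of the 9 libraries in the study. They are the 3 columns of the deposited table whose names carry the sham control label, and they are called library 1, 2 and 3 here in column order. All 3 came from left ventricle of ICR/CD1 mice, an outbred stock, at 14 days of age, with a sham procedure and no constriction of the aorta. The labels give no day for the sham procedure and no sex, and do not say whether each library came from its own animal, so the spread between libraries may be partly technical. The other 6 libraries, from hearts banded on postnatal day 1 or 7, were not used and nothing is compared with them.

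By the second week after birth a mouse cardiomyocyte has largely left the cell cycle and is exchanging fetal for adult members of its contractile, metabolic and ion channel gene families. The alpha heavy chain of myosin takes over from the beta chain, cardiac troponin I from slow skeletal troponin I, and fatty acid oxidation from glycolysis as the main source of ATP. Each of these families holds closely related genes, and the proportion of its members in the mRNA is a standard description of how mature a ventricle is.

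The table holds log2 values per gene, on a TMM scale by its headers, from which whole reads per gene were recovered. There were 21106000 reads in library 1, 26521005 in library 2 and 19633958 in library 3. Levels are given as TPM, the usual length-scaled unit of transcript abundance: reads divided by the merged length of a gene's annotated exons and scaled to the same total in each library. TPM is a scale on which levels of different genes can be compared. Values are listed for libraries 1, 2 and 3 in that order and summarised as mean ± SD (n = 3). A fold between 2 genes is the mean of the within-library log2 ratios taken out of the log. Since a length can be defined in several ways, a fold that moved by over 1.5 times is followed by its range over 4 definitions of length. No test was made, because only 1 group is described.

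The reads were 50 bases long, so how far members of a family can be told apart depends on their sequences. The coding stretches of 60 bases below are the closest that lie within 1 exon of each member, from GENCODE M21 transcripts on GRCm38 (mm10), written 5′ to 3′ on the coding strand. Capitals mark the bases that differ within a pair. The pairs are shown because they span the range from members that share whole reads to members that do not: the 2 ventricular myosin heavy chains (Myh6 at chr14:54963968-54964027, minus strand, and Myh7 at chr14:54992312-54992371, minus strand), the 2 adult alpha globins (Hba-a1 at chr11:32283707-32283766, plus strand, and Hba-a2 at chr11:32296524-32296583, plus strand), the cardiac and slow skeletal troponin I genes (Tnni3 at chr7:4518383-4518442, minus strand, and Tnni1 at chr1:135809638-135809697, plus strand) and the muscle and ubiquitous forms of cytochrome oxidase subunit 6A (Cox6a2 at chr7:128205753-128205812, minus strand, and Cox6a1 at chr5:115345867-115345926, minus strand).
Myh6: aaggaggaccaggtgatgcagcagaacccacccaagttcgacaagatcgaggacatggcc
Myh7: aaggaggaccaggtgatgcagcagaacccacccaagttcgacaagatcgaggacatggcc
Hba-a1: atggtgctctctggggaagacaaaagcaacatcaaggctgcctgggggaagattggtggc
Hba-a2: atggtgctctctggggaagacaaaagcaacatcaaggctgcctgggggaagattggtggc
Tnni3: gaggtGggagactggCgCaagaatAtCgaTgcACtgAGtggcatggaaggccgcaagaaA
Tnni1: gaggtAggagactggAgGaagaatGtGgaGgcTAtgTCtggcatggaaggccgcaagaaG
Cox6a2: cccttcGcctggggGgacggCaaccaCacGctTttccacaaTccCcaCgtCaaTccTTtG
Cox6a1: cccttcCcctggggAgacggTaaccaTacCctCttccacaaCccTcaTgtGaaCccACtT
The Myh6 and Myh7 stretches were identical, as were those of Hba-a1 and Hba-a2. The troponin I stretches differed at 11 of 60 bases and the COX6A stretches at 14. Over the aligned coding sequence Myh6 and Myh7 were 92.15% identical, and 23.82% of all 50-base words of Myh6 were also in Myh7. For Hba-a1 and Hba-a2 the identity was 99.77% and 87.8% of words were shared. Cox6a2 and Cox6a1 were 73.28% identical and Tnni3 and Tnni1 70.96%, with no shared 50-base word in either pair. How reads that map to several places were counted is not given in the sources used here, so the levels of the myosin pair and above all of the alpha globin pair are uncertain in a way that those of the other pairs are not.

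A small number of genes held much of the RNA. Of 16657 genes with a length, 13457 (80.8%) were at 1 TPM or more in all 3 libraries, 8606 (51.7%) at 10 TPM or more, 1318 (7.91%) at 100 TPM or more and 98 at 1000 TPM or more. The 25 most abundant genes held between 24.4% and 25.3% of the TPM total, and between 265 and 301 genes made up 50% of it in the 3 libraries. Protein-coding genes held 97.7% ± 0.0695 of the total. Mitochondrially encoded genes were not analysed here.

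With merged exons as the length, the most abundant transcript was Myh6 (chr14:54941921-54966927, minus strand), the alpha myosin heavy chain that drives contraction in the adult mouse heart. Its levels were 32218, 30952 and 30426 TPM (31199 ± 921), and it took between 5.30% and 5.71% of all reads. Next stood Myl2 (chr5:122100951-122113472), the ventricular regulatory light chain, at 29084, 27684 and 30527 TPM, and Mb (chr15:77015487-77050670), the oxygen-binding myoglobin, at 23554, 20741 and 22723 TPM. The order of Myh6 and Myl2 was the same in libraries 1 and 2 and turned in library 3. The rank of Myh6 rests on the length: it stood 2nd with the longest transcript and 3rd with words found in no other gene, below Myl2 both times, and 7th with the coding sequence, where Pln was highest. Actc1 (chr2:114047282-114053548), cardiac alpha-actin, had the largest SD in TPM of the 25, with 15128, 18064 and 24724 TPM (19306 ± 4917). Myl3 (chr9:110741861-110769798), the ventricular essential light chain, stood at 15540 ± 645 TPM and lay above Actc1 in library 1 only.

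Of the 25 genes, 12 encode parts of the contractile apparatus, its regulators or the calcium pump that relaxes it. Below the 4 already named came Pln, the inhibitor of that pump, at 12182 ± 1416 TPM, and the troponin genes Tnnc1, Tnnt2 and Tnni3 at 9403 ± 651, 9385 ± 460 and 9324 ± 176 TPM. The 3 troponin subunits assemble in equal numbers. With merged exons their means differed by less than the SD of Tnnc1, but with the coding sequence as the length the means of Tnnc1, Tnnt2 and Tnni3 were 6054, 23978 and 9075 TPM, so the match depends on the length. Atp2a2, the SERCA2 pump, stood at 5764, 7188 and 7597 TPM, lowest in library 1. Tpm1 (alpha-tropomyosin) was at 5564 ± 323 TPM, Mybpc3 (cardiac myosin-binding protein C) at 3873 ± 261 and Actn2 (the Z-disc cross-linker alpha-actinin) at 3362 ± 225.

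Another 12 of the 25, Mb among them, serve oxidative metabolism. Fabp3, the heart fatty acid binding protein, stood at 14813 ± 728 TPM, and Slc25a4, the muscle carrier that exchanges ADP for ATP across the inner mitochondrial membrane, at 11760 ± 555. Cytochrome oxidase gave Cox6a2 (7951 ± 367), Cox7b (4913 ± 191) and Cox6b1 (4405 ± 191). ATP synthase gave Atp5a1 (5117 ± 167), Atp5k (4080 ± 213) and Atp5b (4019 ± 58.6), and complex I gave Ndufa5 (3454 ± 251). Acadl, long-chain acyl-CoA dehydrogenase, stood at 4260 ± 233 TPM and Cd36, the fatty acid translocase of the sarcolemma, at 3281, 3293 and 2798 TPM. The only member outside both groups was Ankrd1, a stretch-responsive titin-binding repressor of transcription, at 3708, 3713 and 2548 TPM, lowest in library 3.

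**Figure D1:**
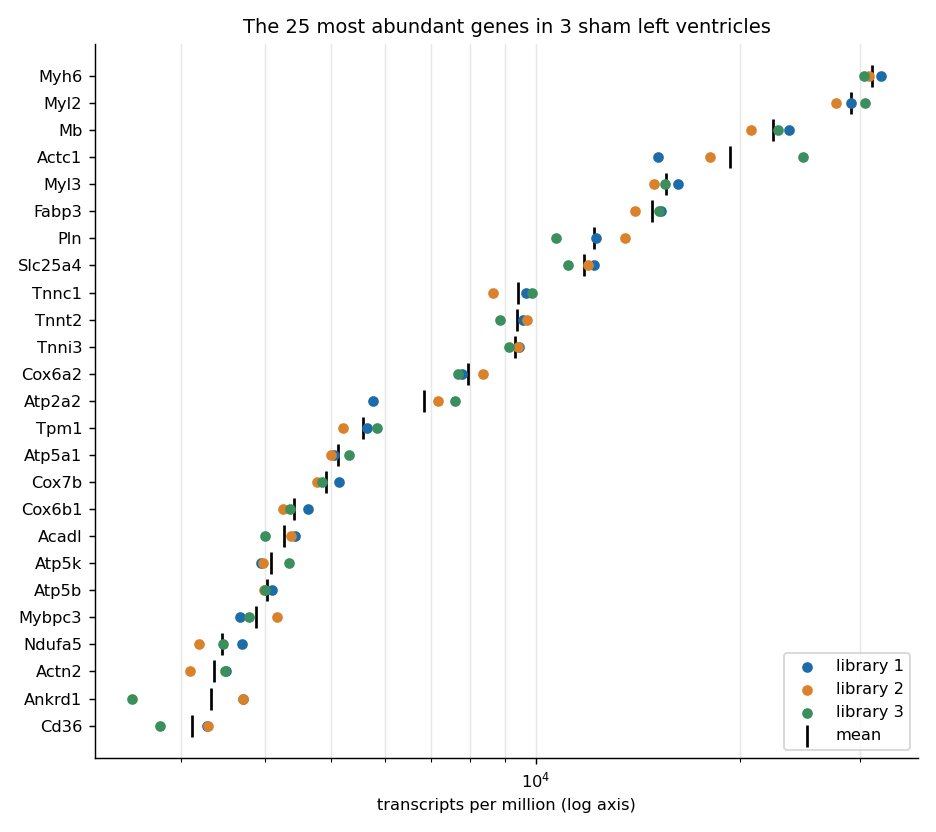
TPM on a log axis for the 25 genes with the highest mean, with a point for each of the 3 sham libraries and a vertical bar for the mean. Myh6 and Myl2 lie highest in every library, and the 3 points of Actc1 and of Ankrd1 lie farthest apart.

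Of the family members listed for this description, contractile genes held 15.01% ± 0.540 of the TPM total (71 genes measured), metabolic genes 10.7% ± 0.442 (101 genes), calcium-handling genes 2.34% ± 0.144 (23 genes), matrix and adhesion genes 1.37% ± 0.0786 (100 genes), channels, pumps and connexins 0.562% ± 0.0255 (102 genes) and transcription factors, peptides and receptors 0.501% ± 0.0802 (34 genes). Against 7.91% of all genes at 100 TPM or more, the count was 31 of 71 for contractile genes, 49 of 101 for metabolic genes and 12 of 102 for channels. The lists were chosen for their known roles in heart, so these shares describe the lists only. In 78 families the highest member could be set against the next. The order was the same in all 3 libraries in 72, and in 9 it turned under another definition of length. The median fold of highest over next was 24.7 in contractile families, 13.9 in calcium-handling, 5.40 in metabolic, 4.60 in channel and 1.35 in matrix families. By these medians the highest member stood farther above the next in contractile than in matrix families. The lists were not built alike, since some matrix lists pair unlike proteins, such as Mfap4 with Fbn1 or Itgb1 with Itgb1bp2. The medians therefore describe the lists only.

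Among the myosin heavy chains, Myh6 made up 94.6% of the family. Myh7, the beta chain of the fetal ventricle, stood at 1252, 1454 and 1105 TPM (3.85% of the family), which placed Myh6 24.7-fold higher, with 21.3- to 27.5-fold in the single libraries. Both have 50-base words in common, as shown above. Counting only words found in no other gene gave 4.30 for the log2 ratio, against 4.63 ± 0.19 with merged exons. Mhrt, a noncoding transcript on the opposite strand that overlaps the 3′ end of Myh7 (chr14:54968678-54974349, plus strand), had 440, 524 and 569 TPM. Whether counting used the strand is not given in the sources used here, so reads of Mhrt and of the overlapped end of Myh7 cannot be told apart. The chains Myh7b (209 ± 17.4 TPM), Myh14 (99.9 ± 19.2) and the nonmuscle Myh9 (98.1 ± 10.7) were lower. The embryonic, perinatal and fast skeletal chains Myh3, Myh8, Myh1, Myh2 and Myh4 were under 1 TPM in all 3 libraries.

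Actc1 made up 95.9% of the actins. Acta2, smooth muscle alpha-actin, came next with 260, 383 and 506 TPM, 51.2-fold lower, and cytoplasmic Actb stood at 262, 301 and 371 TPM. All 3 of these actins were lowest in library 1 and highest in library 3. Acta1, the skeletal alpha-actin that is the fetal and stress form in ventricle, had 115 ± 48.9 TPM, so that Actc1 was 173-fold higher (145 to 227 in the libraries). The level of cytoplasmic Actg1 (6.63 ± 0.658 TPM) is uncertain, since only 43.3% of its 50-base words were found in no other gene.

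The thin filament showed the same dominance. Tnni3 stood at 9446, 9403 and 9123 TPM and Tnni1, the fetal form, at 29.3, 41.8 and 29.8 TPM, a 281-fold difference (143 to 380 over definitions of length). In the cardiac T family Tnnt2 had 9592, 9707 and 8858 TPM against 123, 113 and 138 for Tnnt1, or 75.3-fold (75.3 to 232). Tpm1 was 26.1-fold above Tpm4 (26.1 to 58.4), and the skeletal Tpm2 had 60.7 ± 9.01 TPM. These ratios were of a like size in every library, and the fetal or skeletal member never came near the cardiac one.

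Of the light chains, Myl2 and Myl3 made up 63.1% and 33.7%. The atrial light chains Myl7 and Myl4 stood at 377 ± 110 and 91.6 ± 25.7 TPM. Both were highest in library 3, Myl7 with 335, 294 and 501 TPM. Myl2 was 79.3-fold above Myl7, with 60.9 to 94.2 in the libraries and 79.3 to 261 over definitions of length. Myl3 was 174-fold above Myl4, with 128 to 207 in the libraries and 72.5 to 223 over definitions of length.

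Among structural proteins of the sarcomere, Actn2 was 24.7-fold above Actn4 (15.95 to 24.7), and Mybpc3 171-fold above the fast skeletal Mybpc2. Myom2, an M-band protein that appears with cardiac maturation, had 1539, 1719 and 1015 TPM and was lowest in library 3. Titin (Ttn), the giant spring of the sarcomere, had 231 ± 23.3 TPM. Lmod2, which elongates thin filaments, stood at 3373, 2078 and 2586 TPM and was 4.10-fold above Tmod1, the capping protein of their pointed ends (1.34 to 4.10). Desmin (Des), the muscle intermediate filament, stood at 2043 ± 69.8 TPM and vimentin (Vim), its counterpart in fibroblasts and endothelium, at 466, 375 and 447 TPM.

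In calcium handling each family other than the calmodulins had 1 main member. Atp2a2 made up 99.8% of SERCA mRNA, and the fast skeletal Atp2a1 was under 1 TPM in all 3 libraries. Ryr2, the release channel of the sarcoplasmic reticulum, stood at 269, 286 and 280 TPM and was 8.80-fold above Itpr1. Among inhibitors of the pump, Pln had 12283, 13545 and 10720 TPM while Sln, sarcolipin of the atria, had 27.7, 22.2 and 28.3, a 468-fold difference.

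Casq2, the cardiac calcium buffer, had 2020, 2240 and 2288 TPM. Casq1, the skeletal form, had 361, 155 and 376 TPM, with library 2 low by up to 2.45-fold on the deposited scale, so that Casq2 was between 5.60- and 14.5-fold higher. Jph2, which tethers the reticulum to the T-tubule, was 13.9-fold above Jph1. Slc8a1, the sodium-calcium exchanger, had 31.2, 42.5 and 48.0 TPM, lowest in library 1 like Atp2a2. Calm2 and Calm3 encode the same calmodulin protein and were closer together, with Calm2 at 451 ± 31.9 and Calm3 at 399 ± 38.7 TPM, and Calm3 was above Calm2 when the coding length was used (log2 ratio -0.55).

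Cytochrome oxidase has muscle and ubiquitous forms of some subunits. Cox6a2, the muscle form, had 7792, 8371 and 7691 TPM against 200, 170 and 187 for Cox6a1, 42.9-fold in its favour (30.1 to 47.9). Cox7a1 had 1969, 1747 and 1876 TPM against 602, 572 and 581 for Cox7a2, a smaller 3.18-fold (1.68 to 3.18). Cox8b had 2418, 2226 and 2372 TPM against 487, 441 and 460 for Cox8a, or 5.06-fold (2.90 to 5.06). In all 3 subunits the muscle form led in each library under each length, by amounts that differed widely from subunit to subunit. Cox4i2, the lung and hypoxia form of subunit 4, had 58.4 ± 7.29 TPM, and Cox4i1 was not analysed here.

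In energy transfer, muscle forms led the adenine nucleotide carriers and the creatine kinases. Slc25a4 was 48.0-fold above Slc25a5 (23.3 to 68.7), and Vdac1, the main pore of the outer membrane, 3.79-fold above Vdac2 (1.84 to 3.79). Ckmt2, the mitochondrial creatine kinase, had 2834, 2668 and 2890 TPM and Ckm, the muscle cytosolic one, 2306, 2498 and 2634. Their order turned with the coding length (log2 ratio -0.93). Brain-type Ckb had 37.6 ± 6.23 TPM. Atp5g3 led the genes that encode the same mature subunit c of ATP synthase, 17.6-fold above Atp5g1 (7.54 to 48.4).

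Glycolytic families were led by Pfkm (990 ± 8.61 TPM), Aldoa (1579 ± 108), Eno3 (2100 ± 204), Pgam2 (2637 ± 131) and Ldhb (1707 ± 54.8). The last makes the heart-type subunit of lactate dehydrogenase and stood 5.61-fold above Ldha (2.87 to 5.61). Eno1 (16.5 ± 1.05 TPM) and Pgam1 (11.1 ± 0.296) came out far lower than Eno3 and Pgam2. Their levels are uncertain, because only 27.8% and 58.5% of their 50-base words were found in no other gene. With those words as the length Eno3 was 14.9-fold above Eno1, against 127-fold with merged exons. Slc2a4, the insulin-responsive glucose carrier, had 211, 196 and 202 TPM and stood 32.8-fold above the fetal carrier Slc2a1. The hexokinases Hk1 (118, 158 and 134 TPM) and Hk2 (120, 141 and 143 TPM) overlapped.

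The lists for fat oxidation covered binding, uptake, activation, carnitine transfer and the acyl-CoA dehydrogenases, but no later step. Fabp3 was 15.2-fold above the endothelial and adipocyte form Fabp4, but 2.77-fold under another length, so the size of that gap is poorly set. Cd36 was 3.59-fold above Lpl, lipoprotein lipase (1.24 to 3.59). Acsl1, which activates long-chain fatty acids, had 481, 518 and 511 TPM, 13.8-fold above Acsl3 (13.8 to 34.1). Acadl led the dehydrogenases, above Acadm at 1639 ± 11.6 and Acadvl at 1605 ± 65.3 TPM. Cpt2 had 243, 236 and 309 TPM and Cpt1a, the liver form of the outer carnitine transferase, 45.1, 61.3 and 56.7, whereas the muscle form Cpt1b was not analysed here. Acacb, the carboxylase tied to the outer mitochondrial membrane, was 96.7-fold above the lipogenic Acaca (28.0 to 96.7). Pdk4, which holds pyruvate out of the citric acid cycle when fat is burned, stood at 1657, 1537 and 1493 TPM, 3.25-fold above Pdk2 (2.33 to 3.57).

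Of the regulators of these pathways, the coactivator Ppargc1a had 223, 203 and 173 TPM and Ppargc1b 47.0, 65.8 and 72.2. Library 1 was the highest for the first and the lowest for the second, and their ratio ranged from 2.39 to 4.74 (3.04 to 6.99 over definitions of length). Esrra (89.4 ± 4.11 TPM) led the estrogen-related and PPAR receptors, ahead of Esrrg (52.9 ± 5.75) and Ppara (33.3 ± 6.17).

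Ion channel mRNA was scarce next to that of the sarcomere. Of 102 channel, pump and connexin genes measured, 73 were at 1 TPM or more in all 3 libraries and 42 at 10 TPM or more, shares not above those over all genes. Of the sodium channels, Scn7a had 30.7 ± 2.93 TPM. Cacna1c, the L-type calcium channel, had 76.3, 91.4 and 73.9 TPM. Cacna1g, a T-type channel of fetal ventricle and of the conduction system, had 42.1, 54.4 and 51.0 TPM, so that the L-type gene was 1.64-fold higher (1.64 to 3.67). Cacna2d1 and Cacnb2, its auxiliary subunits, stood at 80.3 ± 9.82 and 57.2 ± 8.17 TPM.

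No single gene held most of the voltage-gated potassium pores. Kcnh2, of the rapid delayed rectifier, had 62.3, 80.0 and 70.7 TPM (27.7% of the family), and Kcnq1, of the slow one, 52.0, 50.0 and 44.8. Their order turned with the coding length (log2 ratio -0.02). Kcna5 had 74.1 TPM in library 1 against 35.4 and 34.1 in the others, a spread over 2-fold. Kcnd2, of the transient outward current, had 36.3 ± 0.855 TPM and its partner Kcnip2 218, 194 and 160 TPM. Kcne1, partner of Kcnq1, had 159, 143 and 188 TPM and lay above Kcnip2 in library 3, and in the mean when the coding length was used (log2 ratio -0.73).

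Inward rectifier genes were led by Abcc9, the sulfonylurea receptor of ATP-sensitive channels in muscle and pericytes, at 291, 406 and 311 TPM. Kcnj5 had 158, 197 and 161 TPM and was level with Abcc9 under the coding length (log2 ratio -0.09). Kcnj2, the main pore of the ventricular resting current, had 60.1 ± 13.1 TPM and Kcnj11, the pore that pairs with sulfonylurea receptors in cardiomyocytes, 13.5 ± 2.02. Kcnk3 made up 90.9% of the measured tandem-pore channels at 191 ± 17.4 TPM. Hcn2 was 16.4-fold above Hcn4, the pacemaker form (2.04 ± 0.617 TPM).

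Gja1 (connexin 43), the gap junction protein of working ventricle, had 301, 446 and 382 TPM. Gjc1 (connexin 45) had 63.9 ± 1.51 and Gja5 (connexin 40), of atria, conduction system and arteries, 7.83 ± 1.46. Fxyd1, phospholemman, a regulator of the sodium pump, held at 538, 528 and 498 TPM. Aqp1, the water channel of endothelium, had 539, 360 and 351 TPM, with library 1 apart.

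Of the 100 matrix and adhesion genes measured, 27 were at 100 TPM or more in all 3 libraries, against 7.91% of all genes. At 1 TPM or more there were 88, against 80.8% of all genes. Sparc and Sparcl1, secreted regulators of matrix assembly, led with 2062, 1710 and 1822 and with 1713, 1706 and 1713 TPM. Ctgf had 728, 506 and 431 TPM. Tnc (4.35 ± 0.739 TPM), tenascin of injured and embryonic matrix, was low and Spp1, osteopontin, was under 1 TPM in all 3 libraries. Postn, periostin of activated fibroblasts, had 128, 127 and 198 TPM.

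The basement membrane collagens Col4a1 and Col4a2 share a promoter region and form 1 trimer, and they were level in every library, with 555, 561 and 626 TPM for Col4a1 and 559, 569 and 646 for Col4a2. Any other length put Col4a1 slightly above. Of the fibrillar collagens, Col3a1 had 511, 456 and 684 TPM, Col1a1 290, 223 and 387 and Col1a2 139, 112 and 189. All 3 were highest in library 3 and lowest in library 2. Col3a1 was 1.85-fold above Col1a1 (1.85 to 3.01), and this ratio stayed between 1.76 and 2.05 in the libraries although both levels moved. Among laminin chains Lamc1 had 343 ± 39.7 TPM, while Lama4 and Lama2 overlapped between libraries (97.8 ± 15.6 and 91.7 ± 10.8). Lamb2 stood 1.34-fold above Lamb1, and under each other length Lamb1 stood above Lamb2.

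Decorin (Dcn), which binds collagen fibrils, led the small leucine-rich proteoglycans with 510, 574 and 533 TPM, 1.96-fold above Aspn (1.96 to 6.47). Lum, lumican, had 206, 206 and 350 TPM. Mmp2 led the metalloproteinases at 189 ± 10.4 TPM, with Mmp15 at 119 ± 16.8, which was level with it under the coding length (log2 ratio -0.01), while Mmp3, Mmp8, Mmp9 and Mmp24 were under 1 TPM in all 3 libraries. Timp3 had 300, 186 and 201 TPM and Timp2 136, 157 and 176. Itgb1, the common beta chain of matrix receptors, had 928 ± 49.6 TPM. Itgb1bp2, which is listed with the beta chains but encodes the muscle protein melusin that binds them, had 620 ± 46.4. Itga5 and Itga7 led the alpha chains at 87.0 ± 1.80 and 68.3 ± 9.71 TPM, and each other length put Itga7 above Itga5.

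**Figure D2:**
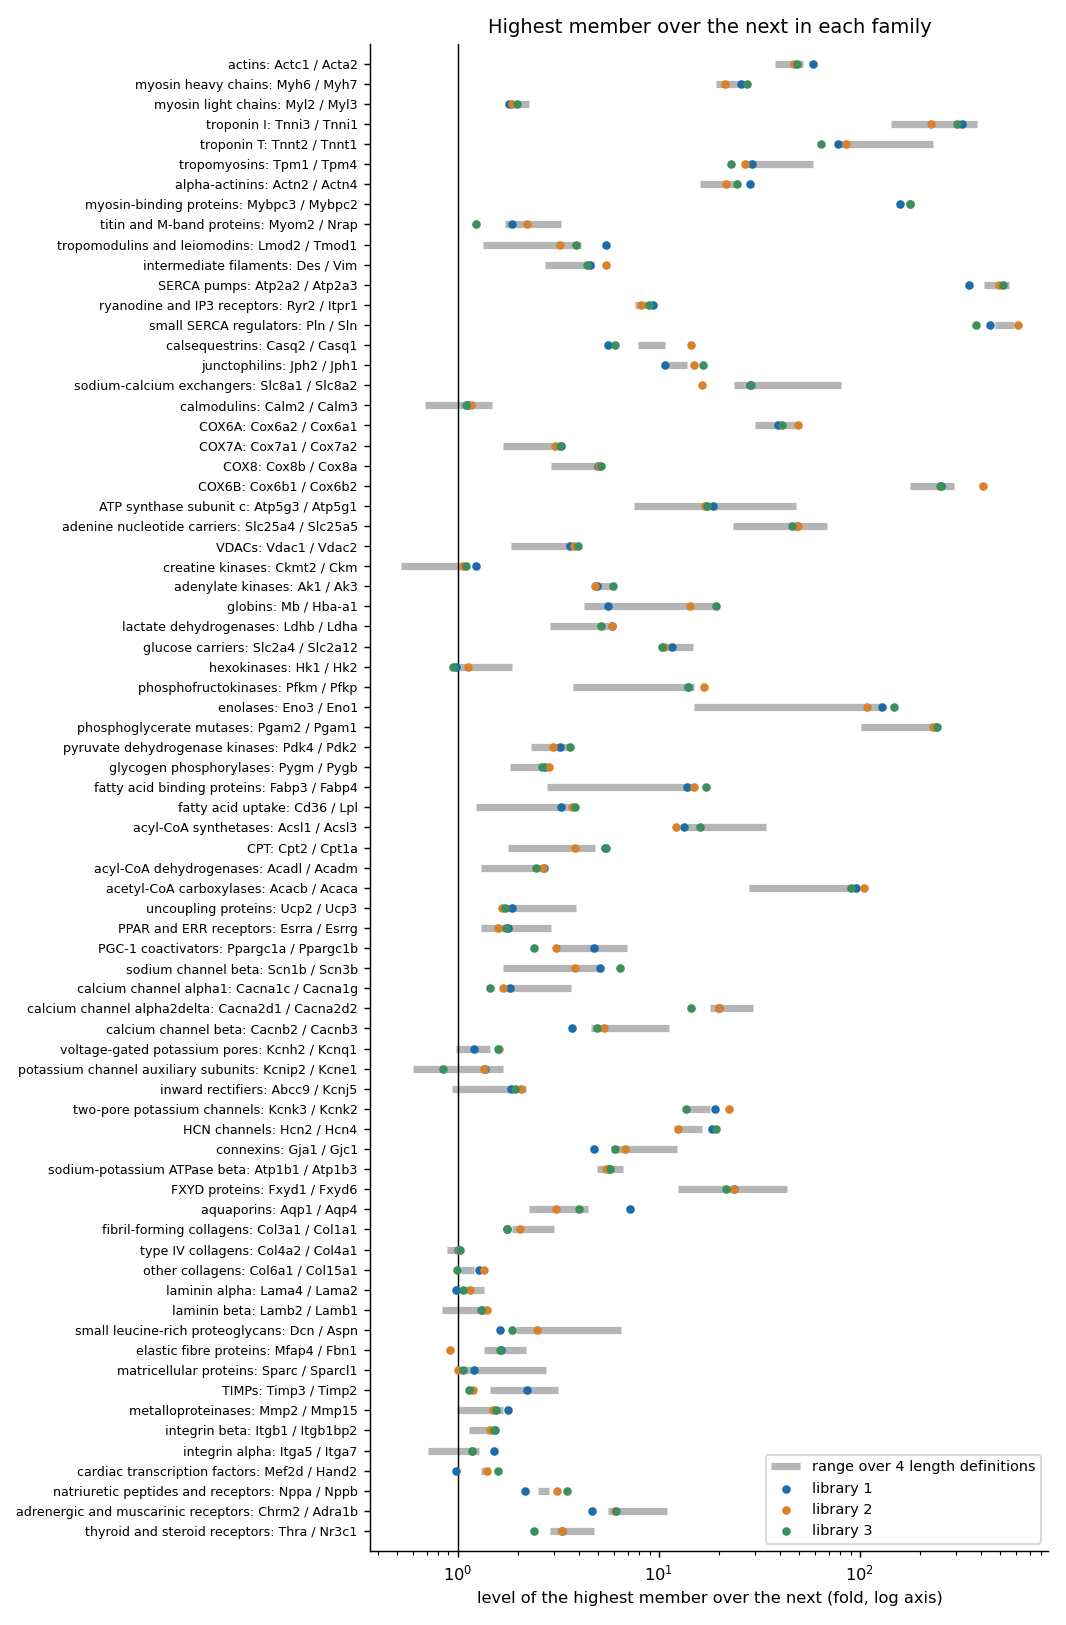
Level of the highest member of each family over the next, as a fold on a log axis, with points for the 3 sham libraries and a grey bar for the range over 4 definitions of gene length. Not every family is plotted; contractile families at the top lie mostly above 10-fold, and many matrix families lie close to 1.

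Transcription factors of the heart were moderately abundant and close in level. Mef2d had 161, 202 and 198 TPM, Hand2 164, 144 and 124, Mef2a 125 ± 8.97, Gata4 99.95 ± 15.04, Nkx2-5 86.1 ± 7.21 and Tbx20 83.4 ± 17.4. Mef2d and Hand2 overlapped between libraries. Irx4, a ventricular identity factor, had 82.7 ± 12.8 TPM. Gata5 was under 1 TPM in all 3 libraries.

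Nppa, atrial natriuretic peptide, had 1596, 2601 and 1987 TPM and Nppb, the B-type peptide, 737, 838 and 570. Both are made by fetal and by stressed ventricle, and both were highest in library 2, as was their processing protease Corin with 288, 360 and 220 TPM. Chrm2, the vagal muscarinic receptor, had 214 ± 19.5 TPM and was 5.56-fold above Adra1b (5.56 to 10.999), with Adrb1 at 25.4 ± 3.31. Thra, which encodes a thyroid hormone receptor, had 252 ± 33.3 TPM and the glucocorticoid receptor gene Nr3c1 had 84.5 ± 7.70.

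Marker lists were set beside the tissue label. In bulk tissue, fewer cells of a type and less RNA per cell cannot be told apart. The 12 ventricular cardiomyocyte markers summed to 141285, 140730 and 147529 TPM, and each of them was at 100 TPM or more. Atrial markers summed to 2098, 3043 and 2698 TPM, most of it Nppa. Bmp10, which is specific to atria and fetal trabeculae, was under 1 TPM in all 3 libraries, and Sln and Mybphl were at 26.1 ± 3.33 and 16.4 ± 4.36. The skeletal muscle list summed to 2499 ± 165 TPM, of which Ckm, also made in heart, gave 2480 ± 165. Its fast-fibre markers were low: Tnni2 had 10.9 ± 1.48 TPM, and Pvalb, Myh1, Myh2, Myh4, Myh8 and Actn3 had means under 1 TPM. The sum of the ventricular list does not tell the chambers apart, since most of the 12, such as Myh6, Actc1 and Tnnt2, are also made by atrial cardiomyocytes. Of the light chains that differ between chambers, Myl2 was 79.3-fold above Myl7 and Myl3 174-fold above Myl4, as given above. By their sums, markers of atrium were far below those of the ventricular list, but not for every member. Nppa at 2061 TPM and Myl7 at 377 lay above Ryr2 at 279 and Ttn at 231 of the ventricular list. Myl4 stood at 91.6 and Kcnj3 at 32.4 TPM. The fast-fibre markers, with Tnnt3 at 4.52 and Mylpf at 1.78 TPM, were far below all ventricular ones.

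Among the other cell types, fibroblast markers summed to 3019, 2965 and 3671 TPM, led by Gsn at 647 ± 48.9, Col3a1 and Dpt at 543 ± 88.0. Endothelial markers summed to 2366, 2259 and 2124, led by Fabp4 at 976 ± 116 and Cdh5 at 402 ± 8.03. Markers of pericytes and smooth muscle summed to 1863 ± 111, led by Rgs5 at 802 ± 57.1. Macrophage markers summed to 285, 376 and 366 TPM, led by Lyz2 at 108, 166 and 127, with the complement gene C1qa at 37.9 ± 3.42 and Mrc1 at 31.4 ± 8.37. Lymphatic markers summed to 147 ± 9.22, led by Prox1 at 72.5 ± 9.08, which cardiomyocytes also express. Wt1, of the epicardium, had 9.98 ± 2.57 TPM and Dbh, of sympathetic nerve, 17.6 ± 2.15.

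Blood and fat markers were low or uneven. The 9 lymphocyte markers measured summed to 4.23 ± 1.62 TPM, and 6 of them were under 1 TPM in all 3 libraries. Neutrophil markers summed to 15.3 ± 5.43 TPM, led by S100a9, and all 6 adipocyte markers measured, among them Adipoq and Plin1, were under 1 TPM in all 3 libraries. Erythroid markers summed to 4782, 1668 and 1399 TPM. Library 1 stood apart with Hba-a1 at 4196 TPM against 1455 and 1179, Hbb-bs at 407 against 155 and 152, and Alas2, of haem synthesis in red cell precursors, at 93.1 against 28.8 and 34.8. The defining membrane protein gene Slc4a1 had 2.02 TPM in library 1 and at most 1.00 in the others. The labels give no sex. Xist, transcribed from the inactive X chromosome, had 0.120, 0.149 and 0.0766 TPM, and the Y-linked Ddx3y 115, 132 and 129 TPM, so no library stood apart in these, which were chosen after their values were seen.

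**Figure D3:**
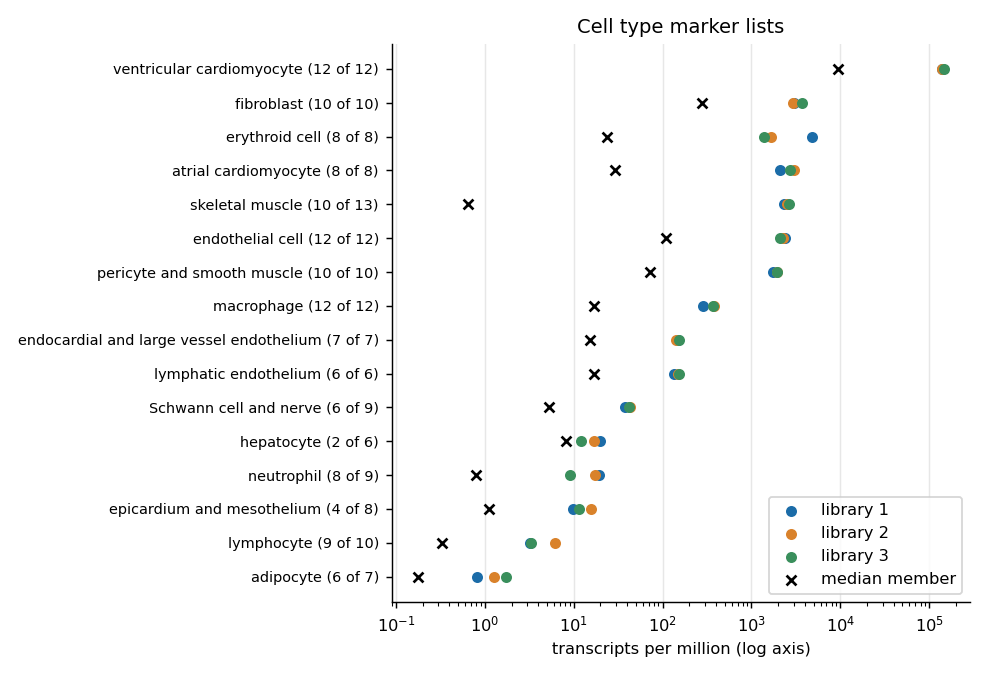
Summed TPM of each cell type marker list on a log axis, with a point for each of the 3 sham libraries and a cross for the median member; labels give how many listed markers were measured. Ventricular cardiomyocyte markers sum to between 140730 and 147529 TPM, and in the erythroid list library 1, at 4782 TPM, lies well above the other libraries.

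The 3 libraries were close over most genes. For the 10421 genes with 100 or more reads in every library, Pearson's r between libraries on the deposited log2 scale, as a description across genes, was 0.9883 (libraries 1 and 2), 0.9857 (1 and 3) and 0.991 (2 and 3). The median SD of the log2 values was 0.115. The SD calculated from read numbers for counting error alone had a median of 0.0533. In simulated libraries, genes with counting error only had a median SD of 0.0416, against a calculated 0.0531. Of these genes 103 (0.988%) differed by 2-fold or more between their highest and lowest library. Library 1 was the farthest from the other libraries for 43.7% of genes, and without it the median SD was 0.0765. Leaving out either other library also lowered the median SD, which tends to be smaller over fewer libraries. Over all these genes library 1 was the highest for 39% and the lowest for 36.4%, library 2 the lowest for 27.2% and library 3 the highest for 28.9%, which are the shares to hold beside the counts for single lists. It also differed with gene length: its median deviation from the gene means was 0.07 for the shortest 2082 genes and -0.06 for the longest 2082, whereas that of library 2 went from -0.04 to 0.04. The part of this length trend in the spread of single genes was not tested.

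The 12 genes of largest SD included no gene of the contractile or metabolic lists other than Hba-a1. Cyfip2, a subunit of the WAVE complex that drives actin branching, had 119, 79.5 and 4.98 TPM, from 4717, 3813 and 180 reads. Cwc22, a splicing factor, had 39.1, 137 and 13.5 TPM, from 1484, 6321 and 468 reads. These 2 genes differed by 25.1- and 10.1-fold between libraries and stood apart from all others. For Cyfip2 the third library was low, and for Cwc22 the second was high and the third low. Iigp1, an interferon-induced GTPase, had 22.4, 73.1 and 15.2 TPM, with the second library high. Gdpd3, a lysophospholipase, had 74.8, 14.9 and 31.8 TPM.

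The other 8 were Mt2 (metallothionein), Hba-a1, Cebpd, Arrdc2, Alas2, Ddit4, Fam107a and Arntl, with SDs between 0.88 and 1.24, and all 8 were highest in library 1 on the deposited scale. Of the 103 genes that differed by 2-fold or more, 53.4% were highest in library 1. Mt2 had 212, 92.9 and 39.7 TPM and Ddit4, an inhibitor of mTORC1, had 102, 46.2 and 30.5 TPM. Arntl, the clock activator BMAL1, had 9.70, 10.2 and 3.52 TPM with libraries 1 and 2 level and library 3 low. At the other end, the 12 genes of smallest SD among these genes were Fbxl14, Vdac1, Tgfb1, Atxn7l3b, Snrnp40, Chtop, Chd2, Phospho2, Zfp317, Hdlbp, Pdzd8 and Ubr3. Vdac1 had 18957, 24166 and 18155 reads and an SD of 0.0017, and the SD of each of the 12 was smaller than counting error alone gives, so their order is not a measure of how constant they are.

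**Figure D4:**
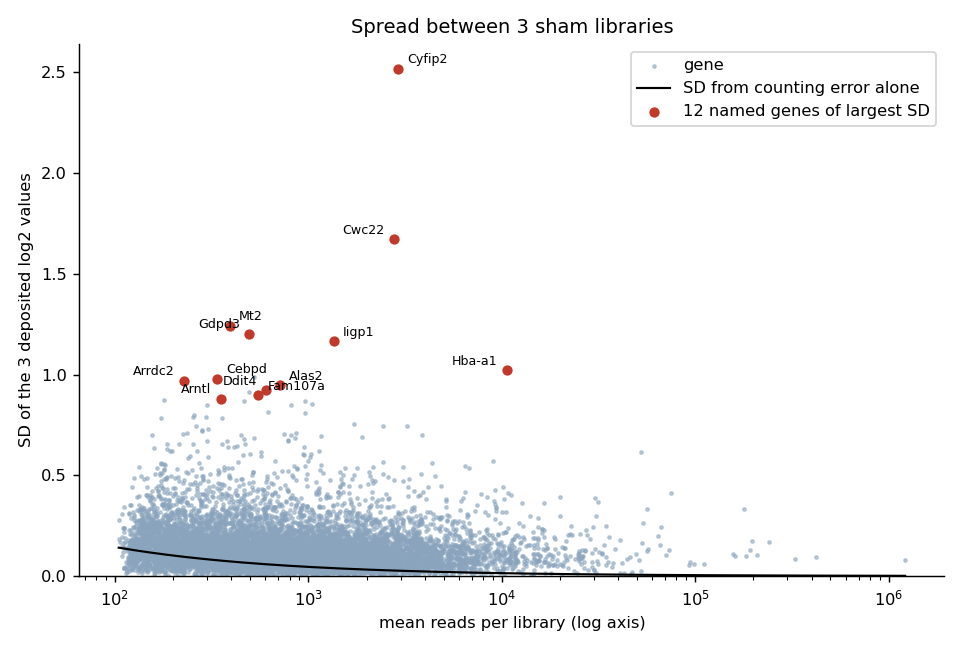
SD of the deposited log2 values over the 3 sham libraries against mean reads per library (log axis), 1 point for each of 10421 genes, with a line for the SD that counting error alone gives. The 12 genes of largest SD are in red, and Cyfip2 and Cwc22 lie above all others.

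Genes of a shared function moved together to differing degrees. Nuclear-encoded genes of oxidative phosphorylation had the smallest spread of the lists plotted by library, with a median SD of 0.071 over 19 genes and a largest of 0.16 for Cycs, cytochrome c. On the deposited log2 scale, which is used for all such counts here, they were lowest in library 2 for 17 of 19 (all genes, 27.2%). In TPM fewer of them were lowest there. Sdha, for example, had 1674, 1726 and 1733 TPM. Cytosolic ribosomal protein genes had a median SD of 0.13 over 13 genes, and 11 of 13 were highest in library 1 (all genes, 39%). Their levels ran from 1465 ± 125 TPM for Rpl4 down to 3.59 ± 0.357 for Rpl11. The share of 50-base words found in no other gene was 83.5% for Rpl4 and 37.8% for Rpl11, so these levels are uncertain. Rps2, with 28.7% such words, had 2.85, 4.21 and 79.8 TPM, from 29, 52 and 744 reads, and was named after its values were seen.

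Cell division genes were low and uneven. Mki67, a marker of cycling cells, had 18.5, 8.55 and 24.7 TPM, and Top2a, the topoisomerase of dividing cells, 10.1, 4.34 and 13.6. The 8 mitosis genes with enough reads had a median SD of 0.61, and 7 of the 8 were lowest in library 2 and 6 highest in library 3, against 27.2% and 28.9% of all genes. The exception to the low values of library 2 was Cenpf, with 20.2, 33.7 and 23.8 TPM. DNA replication genes had a median SD of 0.31 over 9 genes, with 6 highest in library 3 and 6 lowest in library 2. Library 1 stood between: its median deviation from the gene means was 0.27 for the mitosis genes and -0.05 for the replication genes. The cycling genes give no cell type in bulk tissue. Of the collagens outside the fibril-forming and type IV groups, all 8 were highest in library 3 and 7 lowest in library 2, with a median SD of 0.37, and the median deviation of library 1 was -0.10. Fibril-forming collagens were highest in library 3 for 6 of 8 and lowest in library 2 for 5 of 8, and type IV collagens for 4 of 5 and 3 of 5. The fibroblast marker list had 7 of 10 lowest in library 2 and 6 of 10 highest in library 3, against the same 27.2% and 28.9% of all genes. The part of cell composition in these movements was not tested.

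Library 1 differed from the other libraries in its own way. All 4 erythroid markers with enough reads were highest there, by 2.81- to 3.73-fold over the lowest library, and 9 of 10 macrophage markers were lowest there, against 39% of all genes highest and 36.4% lowest in library 1. A list of 14 genes that respond to glucocorticoids, chosen after the values of some of them were seen, was highest in library 1 for 13 genes. It reached 2-fold or more for 9 (all genes, 0.988%). Of all 103 genes at 2-fold or more, 53.4% were highest in library 1. Mt2, Cebpd, Arrdc2, Ddit4 and Fam107a of this list are also among the 12 genes of largest SD. The rest of the 9 are Fkbp5, Per1, Mt1 and Cdkn1a, and all 9 are among the 103 genes. These counts therefore restate that choice at least in part and cannot serve as a test of the list. Fkbp5, a cochaperone of the glucocorticoid receptor, had 25.8, 9.23 and 10.5 TPM, Cdkn1a, a cell cycle inhibitor, 80.5, 32.3 and 27.8, and Tsc22d3, also known as GILZ, 177 in library 1 and 94.1 in library 2. Zbtb16 was the exception, with 77.0, 101 and 148 TPM. Per1, which is both a clock gene and a member of this list, had 56.2, 26.8 and 24.8 TPM. The clock list as a whole did not share this order: the median SD of its 13 genes with enough reads was 0.29, and 8 of them were highest in library 3 (all genes, 28.9%), such as Nr1d2 with 79.5, 89.6 and 115 TPM. Immediate-early genes, which rise within minutes of a stimulus, had a median SD of 0.18 over 12 genes and their largest SD was 0.41, for Atf3. Heat shock genes had a median SD of 0.13, close to that of all genes.

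**Figure D5:**
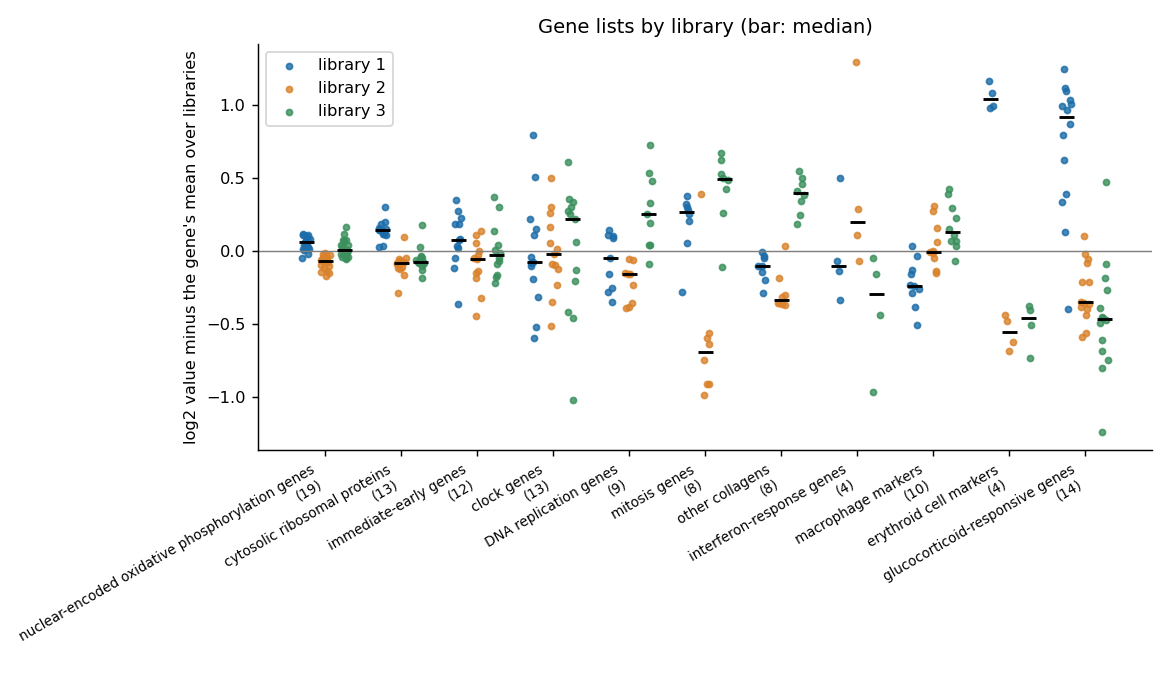
Deposited log2 value minus the gene's mean over the 3 sham libraries, 1 point per gene and library, with a bar for the median; the number of genes is under each list. Library 1 is high in the erythroid and glucocorticoid lists, library 2 is low in the mitosis and collagen lists, and the oxidative phosphorylation list lies within 0.17 of 0. The glucocorticoid list was chosen after the values of some of its genes were seen.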

How the data were processed

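Left ventricle RNA was purified with Dynabeads mRNA DIRECT and made into ScriptSeq v2 libraries, sequenced single-end for 50 cycles, as the labels state. Per the submitters' processing notes, reads were handled with Trim Galore, STAR and edgeR on mm10. For their versions, the annotation, the use of strand and reads with several matches, the details are not given in the sources. The authors deposited log2 values, TMM-scaled per the file headers, for 16710 rows. The median log2 value over the genes used was 3.75265 in each of the 3 sham columns. How the columns came to the same median is not given in the sources used here. Counts of genes highest or lowest in a library rest on this scale. Only the 3 sham columns were read, of which 2 carry the same name, and 6 columns were not used.

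Taken out of the log, 100.0% of values were whole multiples of the column's lowest within 0.001 reads, so reads were recovered with the lowest as 1. Had 1 read been added to every value beforehand, each number would be 1 too high. Rows of 3 symbols that stood on several rows each (12 rows) were left out, and 90 rows whose name repeats a symbol were read as that symbol, which kept 16698 genes. Of these, 16657 had a GENCODE M21 length, 140 by an older symbol.

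TPM used merged exons. Other lengths were the longest transcript, the longest coding sequence (in place of RefSeq protein lengths, which were not used here) and, added after seeing the data, the number of 50-base words of the longest coding transcript found in no other gene. Spread is the SD of the deposited log2 values for genes with 100 or more reads in every library. Counting-error values assume independent reads, and reads without molecular identifiers are not independent molecules.

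Members, lists and comparisons were chosen with earlier results of these data known. Named genes are the 25 most abundant, the highest and next member of each family, the highest and defining markers of each cell type, and the 12 genes of largest and smallest SD. Further members are named as examples from the same lists, and some members are not reported here. Scripts ran in Python 3.11.15 with numpy 2.4.6, pandas 2.3.3 and scipy 1.17.1 and were tested on simulated data.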

Additional observations from a re-analysis of the deposited data

How the results depend on the processing

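Limits come first from gene length. The 25 most abundant genes held 24.9% of TPM with merged exons, 26.6% with the longest transcript, 27.6% with the longest coding sequence, 29.4% with words found in no other gene and 25.3% among genes with 100 or more reads, and of the 25 genes 22, 19 and 16 stayed in the top 25 under the 3 other lengths. The log2 ratio of Myh6 to Myh7 was 4.63 and became 4.30, 4.27 and 4.30 in that order of lengths, that of Tnni3 to Tnni1 8.14 and became 8.57, 7.16 and 7.68, that of Cox7a1 to Cox7a2 1.67 and became 1.29, 0.75 and 1.34, and that of Col3a1 to Col1a1 0.89 and became 1.56, 1.46 and 1.59. Ratios turned with the coding sequence for Calm2 to Calm3 (-0.55), Ckmt2 to Ckm (-0.93), Kcnh2 to Kcnq1 (-0.022), Kcnip2 to Kcne1 (-0.73), Abcc9 to Kcnj5 (-0.088) and Mmp2 to Mmp15 (-0.012), with each other length for Col4a2 to Col4a1 (-0.11, -0.18 and -0.11), Lamb2 to Lamb1 (-0.24, -0.26 and -0.24) and Itga5 to Itga7 (-0.49, -0.24 and -0.48), and for Hk1 to Hk2 without the second library (-0.056, and 0.068 without the third). Each change follows from the other length or the fewer samples. Apart from the first 4 ratios, 73 ratios gave 511 values, of which 357 stayed within 1 SD, 138 moved without turning and 16 turned, the latter being those named above. Taking 1 read off every value moved none of the 73 beyond 1 SD.

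Leaving out each library in turn gave 24.7% to 25.1% for the top 25, and the median SD of 0.115 ranged from 0.0765 without library 1 to 0.106 without library 2. An SD over fewer libraries tends to be smaller, so these values are not on a par with 0.115. Over all genes without a minimum of reads the median SD of the 3 libraries was 0.164, where counting error is larger. Setting mitochondrially encoded genes in or out could not be run, as they were not analysed here. No paired analysis was possible because no groups are compared. With 3 libraries, genes under 1 TPM rest on few reads.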

Other observations

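Some abundant noncoding genes belong to none of the lists and were named after their values were seen. Gm42418 (chr17:39846958-39848788, plus strand), annotated as a long noncoding RNA, had 3778.7, 2668 and 2460 TPM and stood 27th of all genes by mean. Whether its reads came from this RNA or from another RNA of the same region was not tested. Mir6236 (chr9:110281287-110281409, plus strand), a microRNA gene model of 123 bases, had 981, 743 and 302 TPM from 671, 617 and 189 reads. A530058N18Rik (chr2:114013602-114032292, plus strand), a processed transcript, had 466, 601 and 839 TPM. Tuba4a, an alpha-tubulin, had 114, 145 and 299 TPM.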
